A study of Mus musculus with 10 samples.

Results

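Intermediate filaments are rope-like polymers of coiled-coil proteins that give a cell its mechanical strength, and their make-up changes as a neural cell matures. Dividing neural progenitors build them from vimentin and nestin, newly born neurons add alpha-internexin and peripherin, and the neurofilament light, medium and heavy chains follow and set the calibre of axons. Vimentin is also the main filament of fibroblasts and other mesenchymal cells. Synucleins are small proteins of nerve endings that bind membranes, and gamma-synuclein is best known from sensory and motor neurons.

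The 9 genes described here were taken by symbol from a table of 42465 gene models: Prph, Nefl, Nefm, Nefh, Ina, Nes and Vim for filaments, and Sncb and Sncg for synucleins. RNA came from mouse neural tube explants, the tissue from which the neural crest leaves, dissected at embryonic day 9.5 and holding neural crest cells. There were 5 Ednrb-/- and 5 WT explant libraries, described as biological replicates. Ednrb is the endothelin receptor type B. Both genotypes were cultured for 4 days in DMEM-based medium with 10% fetal bovine serum, gentamicin, L-glutamine and 20 nM EDN3, the receptor's peptide ligand. The sources used here do not give the strain, the kind of allele or any pooling of embryos.

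The values are FPKM, reads scaled to the length of the gene model and to library depth, so levels can be compared between genes. A log2 fold change is the mean log2(FPKM + 0.5) of Ednrb-/- libraries minus that of WT libraries. These come from a limma fit over all 15156 genes that had at least 0.5 FPKM in at least 5 libraries, with a Benjamini-Hochberg threshold of 0.05. Reads worked back from the values came to between 13022266 and 19532570 per library. Ednrb itself averaged 7.15 ± 3.41 FPKM in Ednrb-/- and 52.3 ± 7.16 FPKM in WT libraries (SD, n = 5 each), with every Ednrb-/- library below every WT library.

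All 9 genes were above the filter. Of them 7 passed the threshold, 5 higher and 2 lower in Ednrb-/-, and the libraries of the genotypes did not overlap for these 7. Over all genes 19.5% passed, 6.53% higher and 13% lower, and 13.2% had groups without overlap, 4.78% with Ednrb-/- higher and 8.44% with Ednrb-/- lower. Under quantile normalization of the libraries the calls over all genes split into 1603 higher and 1730 lower, against 990 higher and 1966 lower without it. The genes were chosen by this contrast, the FPKM of Ednrb-/- against WT libraries, so their differences describe them and test nothing. The neuronal genes Prph, Sncg, Nefl, Nefm and Ina were the 5 higher ones, and Nes and Vim the 2 lower ones. Nefh and Sncb did not pass. Under all 20 alternative settings tried, 7 of the 9 passed.

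The proximal promoters of the genes with the largest differences in each direction are shown so that their sequences can be read beside the values. RefSeq (build GRCm38.p6) gave a start site for 6 of the 9 genes, and the 250 bases before it are printed 5′ to 3′ on the strand of the gene. Capitals mark matches to TATAAA, the TATA box, to GGGCGG, the GC box, and to CAGCTG and CAGATG, E-box forms that proneural factors can bind. Both strands were searched, so that GGGCGG reads CCGCCC and CAGATG reads CATCTG where the match is on the opposite strand. No match overlapped another.
Prph, chr15:99054924-99055173, plus strand: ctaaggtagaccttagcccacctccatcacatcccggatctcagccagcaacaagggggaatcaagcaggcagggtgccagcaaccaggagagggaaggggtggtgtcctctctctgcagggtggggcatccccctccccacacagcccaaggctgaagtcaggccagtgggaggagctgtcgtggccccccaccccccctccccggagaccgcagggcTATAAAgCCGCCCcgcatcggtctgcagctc
Sncg, chr14:34374670-34374919, minus strand: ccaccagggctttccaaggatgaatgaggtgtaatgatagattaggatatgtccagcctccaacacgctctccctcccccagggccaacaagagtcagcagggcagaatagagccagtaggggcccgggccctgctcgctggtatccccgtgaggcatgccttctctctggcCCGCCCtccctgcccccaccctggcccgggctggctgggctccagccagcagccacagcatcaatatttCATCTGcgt
Nes, chr3:87970843-87971092, plus strand: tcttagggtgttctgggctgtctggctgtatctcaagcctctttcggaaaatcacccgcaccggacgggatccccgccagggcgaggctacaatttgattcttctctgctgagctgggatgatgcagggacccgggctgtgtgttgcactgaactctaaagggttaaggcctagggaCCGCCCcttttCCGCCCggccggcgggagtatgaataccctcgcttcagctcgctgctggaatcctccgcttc
Vim, chr2:13574061-13574310, plus strand: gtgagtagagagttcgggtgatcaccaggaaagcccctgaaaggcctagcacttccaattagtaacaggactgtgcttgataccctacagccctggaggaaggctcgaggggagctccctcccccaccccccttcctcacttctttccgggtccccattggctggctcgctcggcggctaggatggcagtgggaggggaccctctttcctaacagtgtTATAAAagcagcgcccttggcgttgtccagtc

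Counting back from the start site, with -1 for the last base before it, TATAAA began at position -31 in Prph and -32 in Vim. In both the letters stand at the usual distance of a TATA box. Prph was higher and Vim lower in Ednrb-/- explants. The other promoters searched, those of Sncg, Nes, Ina and Sncb, did not hold TATAAA in this window, and over 32851 RefSeq start sites 12.4% did. GGGCGG began at -24 in Prph, at -78 in Sncg and at -73 and -62 in Nes, all on the opposite strand, and 32.7% of all start sites held it. CAGATG lay at -9 in Sncg on the opposite strand, where 14.4% of all start sites held it. In Ina CAGCTG lay at -135, beside GGGCGG at -111 and -12, and in Sncb GGGCGG lay at -26. CAGCTG was held by 13% of all start sites. A match is a string of letters and says nothing of use by a factor.

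Prph encodes peripherin, the filament of peripheral, autonomic and motor neurons, and was together with Sncg one of the genes with the largest differences. Its levels were 15.5, 26.3, 28.2, 16.0 and 18.8 FPKM in Ednrb-/- replicates 1 to 5, against 4.29, 14.7, 5.18, 8.195 and 10.2 FPKM in WT replicates 1 to 5. Every Ednrb-/- library lay above every WT library, but Ednrb-/- replicate 1 lay close to WT replicate 2, the highest of its group. The means were 20.97 ± 5.91 and 8.52 ± 4.19 FPKM in Ednrb-/- and WT libraries (SD, n = 5 each). On the log2 scale Prph was 1.33 higher (SE 0.30), against 1.29 for Sncg. Sncg had the larger ratio of mean FPKM, 2.56 against 2.46 for Prph. The relative spread of Prph among WT libraries, a coefficient of variation of 49.1%, was the widest of the 9 genes in that genotype. Prph has the identifier MGP_C57BL6NJ_G0022729 and lies on chromosome 15 from 104605384 to 104609233 in the C57BL/6NJ coordinates of the table.

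The neurofilament light chain gene Nefl, whose product forms the core of the neurofilament, was at 66.1, 100.01, 95.2, 87.8 and 79.969 FPKM in Ednrb-/- replicates 1 to 5. WT replicates 1 to 5 held 58.6, 59.6, 35.4, 43.8 and 61.0 FPKM. The groups were separated by the gap between Ednrb-/- replicate 1 and WT replicate 5. Nefm, the medium chain that joins neighbouring filaments through its long tail, was at 67.5, 84.5, 79.4, 96.3 and 76.8 FPKM in Ednrb-/- replicates 1 to 5, against 42.3, 59.3, 34.3, 45.0 and 67.2 FPKM in WT replicates 1 to 5. Here Ednrb-/- replicate 1 and WT replicate 5 all but met. The log2 differences were 0.74 for Nefl and 0.73 for Nefm (SE 0.17 each). The ratio of Nefl to Nefm was 1.06 ± 0.13 in Ednrb-/- and 1.06 ± 0.19 in WT libraries (SD, n = 5 each).

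These chains lie side by side on chromosome 14, and their reads are not fully separable here. In the table Nefl (MGP_C57BL6NJ_G0021913) runs on the plus strand from 65690286 to 65699769. The Nefm model (MGP_C57BL6NJ_G0021912) runs on the minus strand from 65689013 to 65738088 and spans the whole of Nefl. In the GENCODE M21 annotation of GRCm38, whose exons cover 3380 bases of Nefl and 5782 bases of Nefm, the same lengths as in the table, 1108 exonic bases are common to both. Strand use in counting is unknown here, so reads from those bases cannot be assigned to a strand. Nefl and Nefm also share a chromosome with Ednrb, which starts 38.7 and 38.6 Mb away, and Sncg lies 75.6 Mb from it. Whether this bears on their levels was not tested. Ina overlaps Nt5c2 on the opposite strand by 456 bases.

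Nefh, the heavy chain that joins neurofilaments last as axons mature, was close to the filter. Ednrb-/- replicates 1 to 5 held 0.898, 3.46, 1.15, 2.78 and 1.74 FPKM and WT replicates 1 to 5 held 0.729, 1.10, 1.11, 1.22 and 1.32 FPKM, resting on between 48 and 181 reads per library. The 3 Ednrb-/- replicates 2, 4 and 5 were above all WT libraries, and the other two lay within the WT range. On the log2 scale the difference was 0.55 (SE 0.28), and 0.36 without Ednrb-/- replicate 2. The gene was expressed far below its partners, with a Nefl to Nefh ratio of 52.6 ± 24.5 in Ednrb-/- and 49.7 ± 19.3 in WT libraries (SD, n = 5 each).

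Alpha-internexin, the product of Ina and the first of these chains to appear in many embryonic neurons, was by far the most abundant neuronal filament gene. It was at 361, 506, 377, 405 and 403 FPKM in Ednrb-/- replicates 1 to 5, against 279.5, 265, 275, 272 and 304 FPKM in WT replicates 1 to 5. The WT libraries lay close together, with a coefficient of variation of 5.27%, and all Ednrb-/- libraries lay above them. On the log2 scale the difference was 0.55 (SE 0.10). By mean level Ina ranked 54 among all tested genes in Ednrb-/- and 87 in WT libraries.

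**Figure D1:**
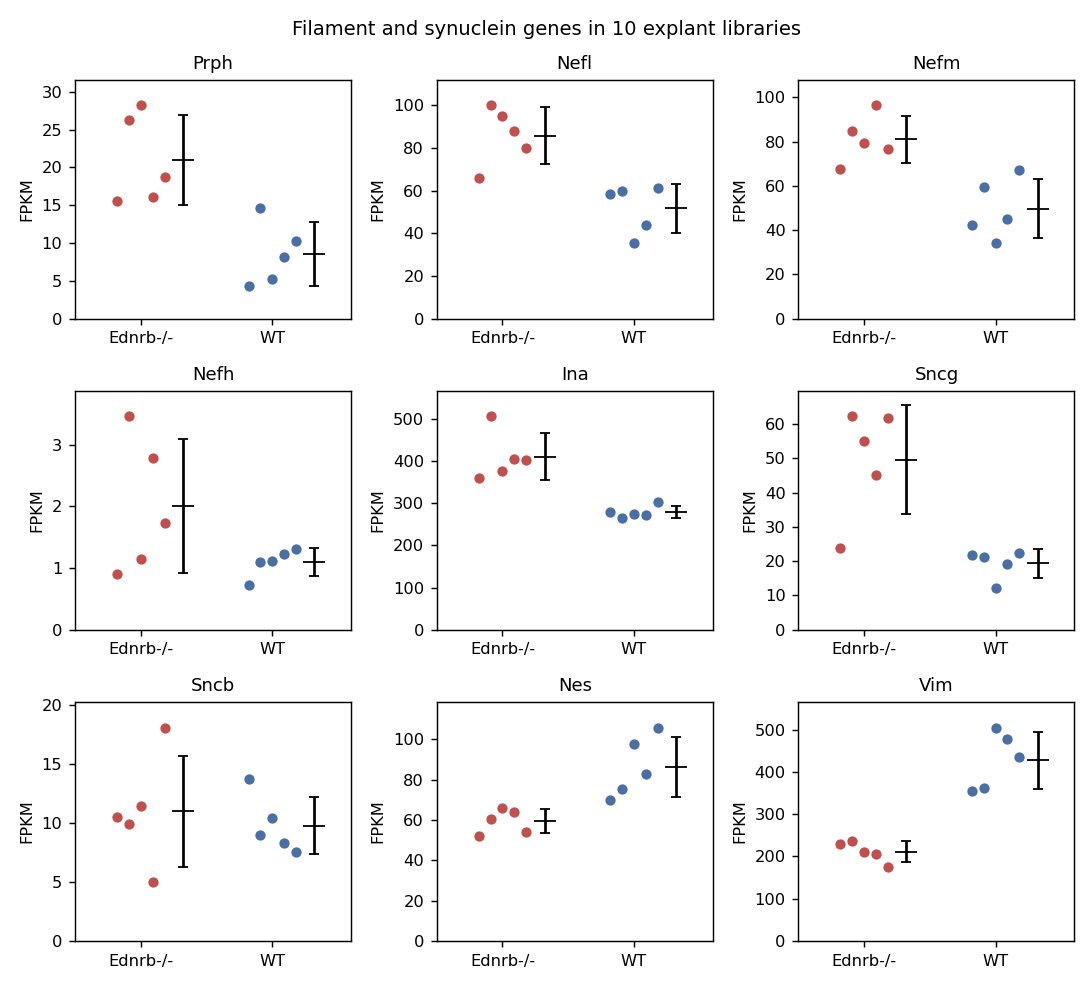
FPKM of the 9 genes in each library, with Ednrb-/- explants in red at the left and WT explants in blue at the right of each panel. Points are libraries in the order of their replicate numbers and bars are the mean ± SD of 5. The groups do not overlap for Prph, Nefl, Nefm, Ina, Sncg, Nes and Vim, and they overlap for Nefh and Sncb.

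Of the synucleins Sncg had groups that did not overlap and Sncb had groups that did. Sncg, which encodes gamma-synuclein, was at 24.0, 62.2, 55.1, 45.2 and 61.6 FPKM in Ednrb-/- replicates 1 to 5. WT replicates 1 to 5 held 21.9, 21.1, 12.2, 19.2 and 22.4 FPKM. Ednrb-/- replicate 1 stood just above the WT range and the others well above it. On the log2 scale the difference was 1.29 (SE 0.26), and 1.53 without Ednrb-/- replicate 1. Sncb, which encodes beta-synuclein, a protein of presynaptic endings, was at 10.5, 9.87, 11.4, 5.02 and 18.1 FPKM in Ednrb-/- replicates 1 to 5, against 13.7, 8.95, 10.4, 8.27 and 7.51 FPKM in WT replicates 1 to 5. Its highest and lowest values of all 10 libraries were both in Ednrb-/- explants. On the log2 scale the difference was 0.09 (SE 0.27), and it was -0.11 without Ednrb-/- replicate 5 and 0.33 without Ednrb-/- replicate 4.

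Nes and Vim went the other way. Nes encodes nestin, the large filament protein of neural stem and progenitor cells that also occurs in muscle precursors and some mesenchyme. It was at 52.2, 60.6, 66.1, 63.8 and 54.2 FPKM in Ednrb-/- replicates 1 to 5, against 69.8, 75.6, 97.5, 82.7 and 105.8 FPKM in WT replicates 1 to 5. The highest Ednrb-/- library was just below the lowest WT library, and the log2 difference was -0.52 (SE 0.12). Vim, which encodes vimentin, was at 229, 235, 211, 207 and 174 FPKM in Ednrb-/- replicates 1 to 5, and at 354, 362, 505, 479 and 436 FPKM in WT replicates 1 to 5. The groups lay far apart, and the log2 difference was -1.01 (SE 0.13). The Vim to Nes ratio was 3.58 ± 0.54 in Ednrb-/- and 4.99 ± 0.61 in WT libraries (SD, n = 5 each), with some overlap.

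**Figure D2:**
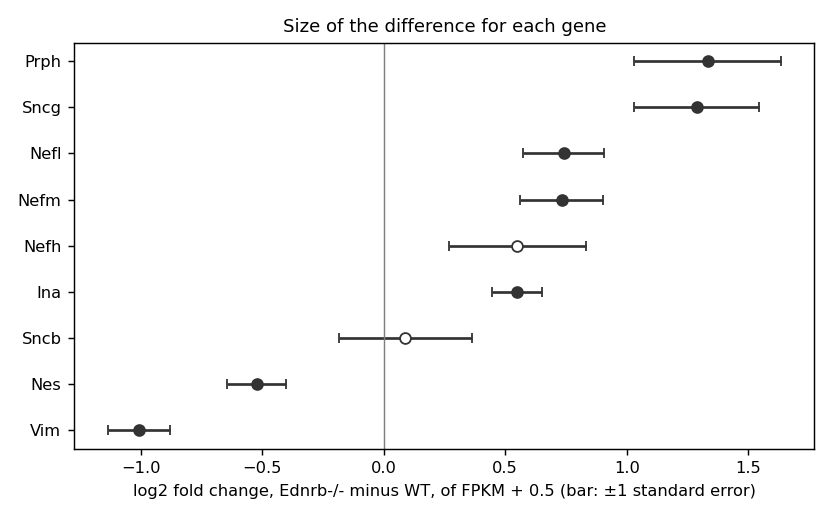
Log2 fold change of each gene, Ednrb-/- minus WT, with bars of 1 standard error from the fit over all genes. Filled points passed the threshold over all genes and open points did not. The values run from 1.33 for Prph to -1.01 for Vim, with Nefh at 0.55 and Sncb at 0.09 open.

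The order of the genes by mean level differed between the genotypes in its upper part. In Ednrb-/- libraries Ina led with 410.5 ± 56.4 FPKM, ahead of Vim with 211 ± 24.2 FPKM, and Nefl (85.8 ± 13.4), Nefm (80.9 ± 10.6), Nes (59.4 ± 5.99) and Sncg (49.6 ± 15.9) followed. In WT libraries Vim led with 427 ± 67.7 FPKM, ahead of Ina with 279 ± 14.7 FPKM, and Nes (86.3 ± 15.0), Nefl (51.7 ± 11.5), Nefm (49.6 ± 13.4) and Sncg (19.4 ± 4.16) followed, all mean FPKM ± SD with n = 5. The libraries of Nefl and Nefm overlapped in both genotypes. In Ednrb-/- explants those of Nes overlapped with those of Sncg and, narrowly, with those of Nefl. Prph was above Sncb by its mean in Ednrb-/- libraries and below it in WT libraries, with overlapping libraries in both. Nefh was last in both.

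The ratio of Ina to Vim shows the exchange at the top in every library. It was 1.96 ± 0.29 in Ednrb-/- libraries, from 1.57 to 2.32, and 0.666 ± 0.106 in WT libraries, from 0.544 to 0.790 (SD, n = 5 each). The summed FPKM of the 7 filament genes was similar in size, at 871 ± 88.6 in Ednrb-/- and 903 ± 76.0 in WT libraries, with overlapping ranges. Within that sum the 5 neuronal chains (Prph, Nefl, Nefm, Nefh and Ina) held 68.8 ± 2.89% in Ednrb-/- and 43.4 ± 4.90% in WT libraries. Vim held 24.3 ± 2.81% in Ednrb-/- and 47.1 ± 4.67% in WT libraries. The ranges of Ednrb-/- and WT libraries did not overlap for either share. In RNA from whole explants, fewer cells of a type and less RNA per cell cannot be told apart.

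**Figure D3:**
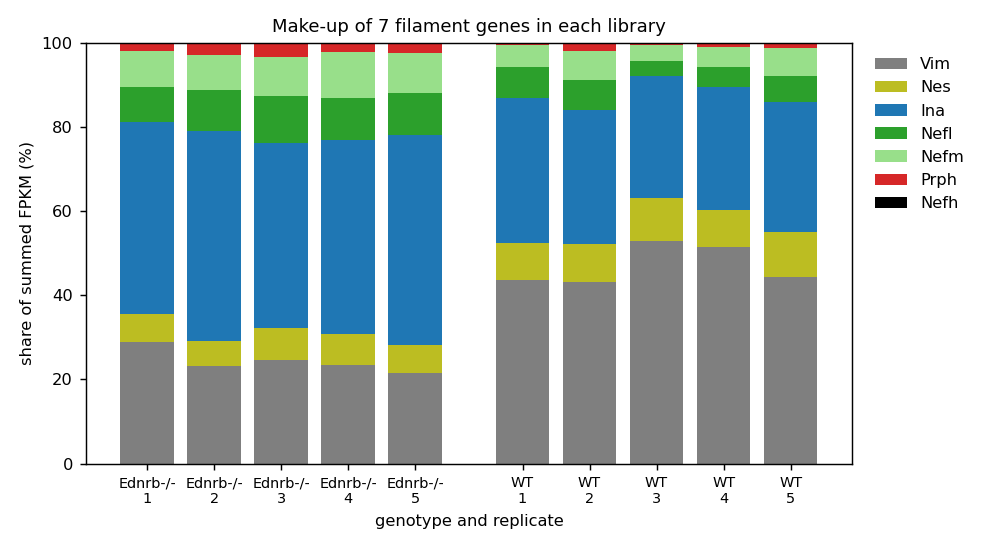
Share of the summed FPKM of 7 filament genes taken by each gene, in percent, 1 bar per library with Ednrb-/- at the left and WT at the right. Vim (grey) held between 21.5 and 28.9% in Ednrb-/- libraries and between 43.2 and 53.0% in WT libraries, while Ina (blue) held between 44.0 and 49.9% in Ednrb-/- and between 28.8 and 34.5% in WT libraries.

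Markers of neurons and of mesenchyme moved with these genes, and neuron and neural progenitor markers were present in every library. Of 13 neuron markers tested, among them the tubulin gene Tubb3 and the growth cone gene Stmn2, 12 rose and none fell in Ednrb-/- explants (limma over all genes), with a median log2 fold change of 0.54 against 0.0048 over all genes. Their summed level ran from 2213 to 2648 FPKM in Ednrb-/- and from 1403 to 1837 FPKM in WT libraries. Of 10 smooth muscle markers tested all 10 fell, and of 10 fibroblast-like markers tested 9 fell and 1 rose, Dcn, the gene of the proteoglycan decorin. The summed level of the fibroblast-like list ran from 48.6 to 150 FPKM in Ednrb-/- and from 191 to 1009 FPKM in WT libraries, and that of the smooth muscle list from 62.3 to 336 FPKM in Ednrb-/- and from 362 to 2720 FPKM in WT libraries. In the fibroblast-like list Twist2 and Tcf21 were under 0.5 FPKM in every library, and no list gene of neurons or smooth muscle was. What part these cell types have in the levels of the filament genes was not tested.

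Markers of the neuron subtypes that use peripherin mostly did not pass. Of 8 motor neuron markers 1 rose, the transcription factor gene Lhx3, and 7 did not pass by limma. The median log2 fold change was 0.52, 4 of the 8 were at an unadjusted p under 0.05, and limma voom on recovered reads called 3. Of these 4, Lhx3, Lhx4 and Slc18a3 were higher in Ednrb-/- and Slc5a7 was lower. Slc5a7, named after its values were seen, averaged 2.61 FPKM in Ednrb-/- and 7.01 FPKM in WT libraries (limma, adjusted p = 0.0501). The summed level of the 8 motor neuron markers ran from 43.1 to 61.4 FPKM in Ednrb-/- and from 29.3 to 44.9 FPKM in WT libraries. Of 8 autonomic and enteric markers, whose median was 0.38, with 4 at an unadjusted p under 0.05 and 1 called by limma voom, 1 fell, the zinc finger factor gene Gata3, and its call was lost without any 1 of 6 libraries, Ednrb-/- replicates 1 and 2 and WT replicates 1, 3, 4 and 5 (limma, adjusted p from 0.0573 to 0.114), and with no filter, no variance trend, a pseudocount of 0.1, TPM rescaling or quantile normalization. Their summed level ran from 51.0 to 95.9 FPKM in Ednrb-/- and from 38.3 to 94.5 FPKM in WT libraries. Of 7 sensory neuron markers 0 passed by limma, with 0 at an unadjusted p under 0.05 and 0 by limma voom on recovered reads, though their median was 0.53. Their summed level ran from 56.1 to 84.4 FPKM in Ednrb-/- and from 45.6 to 78.5 FPKM in WT libraries. Dbh, the noradrenaline-forming enzyme of sympathetic neurons, was under 0.5 FPKM in every library.

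Other progenitor markers were not lower together with Nes. Of 14 neural progenitor markers none fell and 2 rose, Fabp7, a lipid-binding protein gene, and Rfx4, a transcription factor gene of the neural tube, with a list median of 0.49 on the log2 scale. By limma 7 of the 14 were at an unadjusted p under 0.05, all of them higher in Ednrb-/-, and limma voom on recovered reads called 4. Fabp7 is a glial marker too. The call of Fabp7 was lost without any 1 of 6 libraries, Ednrb-/- replicates 2, 3 and 5 and WT replicates 3, 4 and 5 (limma, adjusted p from 0.0577 to 0.0897), and with no filter or no variance trend. That of Rfx4 was lost without any 1 of 8 libraries, all but Ednrb-/- replicate 4 and WT replicate 2 (limma, adjusted p from 0.0612 to 0.109), and with those settings or TPM rescaling. The summed progenitor level ran from 644 to 774 FPKM in Ednrb-/- and from 292 to 645 FPKM in WT libraries, and most of it was Fabp7, with a mean of 427 of 707 FPKM in Ednrb-/- and 268 of 485 FPKM in WT libraries. Nes stood 1.89 ± 0.19 log2 units above the list mean in Ednrb-/- and 2.84 ± 0.63 above it in WT libraries. Vim stood 3.71 ± 0.15 above it in Ednrb-/- and 5.15 ± 0.67 above it in WT libraries (SD, n = 5 each), and for Vim the ranges did not overlap.

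Fibroblast-like markers were lower in Ednrb-/- explants by more than Vim and Nes were, by their means. Vim exceeded the mean of the fibroblast-like list by 5.66 ± 0.89 log2 units in Ednrb-/- and by 4.54 ± 0.41 in WT libraries. For Nes the excess was 3.84 ± 1.04 in Ednrb-/- and 2.24 ± 0.47 in WT libraries (SD, n = 5 each). Both pairs of ranges overlapped. Other lists fell together with Vim and Nes. Of 8 glia and Schwann cell precursor markers tested, of 10 listed, 7 fell and 1 rose, Fabp7, with a median log2 fold change of -2.07. S100b and Gfap of that list were under 0.5 FPKM in every library. Of 6 melanocyte markers tested, of 10 listed, 5 fell, with a median of -2.54. Slc45a2 and Oca2 of that list were under 0.5 FPKM in every library. The filter of 5 libraries can be met by WT libraries alone. Mlana and Mitf averaged 0.342 and 0.523 FPKM in Ednrb-/-, against 5.13 and 3.55 FPKM in WT libraries. Only 3 of 9 listed skeletal muscle markers were tested, Des among them, and 3 fell, with a median of -2.58. Myod1, Myf5 and Ttn of that list were under 0.5 FPKM in every library. What part glia, melanocytes or muscle cells have in the levels of Vim and Nes was not tested. Macrophage and endothelial markers were low. The summed level of the 8 macrophage markers was at most 0.202 FPKM in Ednrb-/- and 0.330 FPKM in WT libraries, each marker was under 0.5 FPKM in every library, and 2 were at 0 throughout. Of 8 endothelial markers 5 were under 0.5 FPKM in every library, Pecam1, Cdh5, Tek, Emcn and Tie1, and the summed level ran from 1.26 to 2.09 FPKM in Ednrb-/- and from 1.83 to 14.8 FPKM in WT libraries. Of the 2 endothelial markers tested Kdr, a VEGF receptor gene, fell by 1.79 (SE 0.45) on the log2 scale.

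Relative to the neuron list, the mean distance of the neuronal genes was nearly the same in both genotypes for Ina and Nefh and not for the others. Ina minus the mean of the 13 neuron markers was 2.08 ± 0.16 log2 units in Ednrb-/- and 2.06 ± 0.13 in WT libraries, and Nefh minus that mean was -5.38 ± 0.60 in Ednrb-/- and -5.40 ± 0.31 in WT libraries. For Nefl it was -0.18 ± 0.22 in Ednrb-/- and -0.39 ± 0.30 in WT libraries, and for Nefm -0.26 ± 0.19 in Ednrb-/- and -0.46 ± 0.41 in WT libraries. The mean distance differed most between the genotypes for Prph, at -2.21 ± 0.38 in Ednrb-/- and -3.02 ± 0.74 in WT libraries, and for Sncg, at -1.03 ± 0.50 in Ednrb-/- and -1.78 ± 0.30 in WT libraries. For Sncb it was -3.18 ± 0.59 in Ednrb-/- and -2.73 ± 0.26 in WT libraries (SD, n = 5 each throughout). The libraries of the genotypes overlapped for each of these differences.

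**Figure D4:**
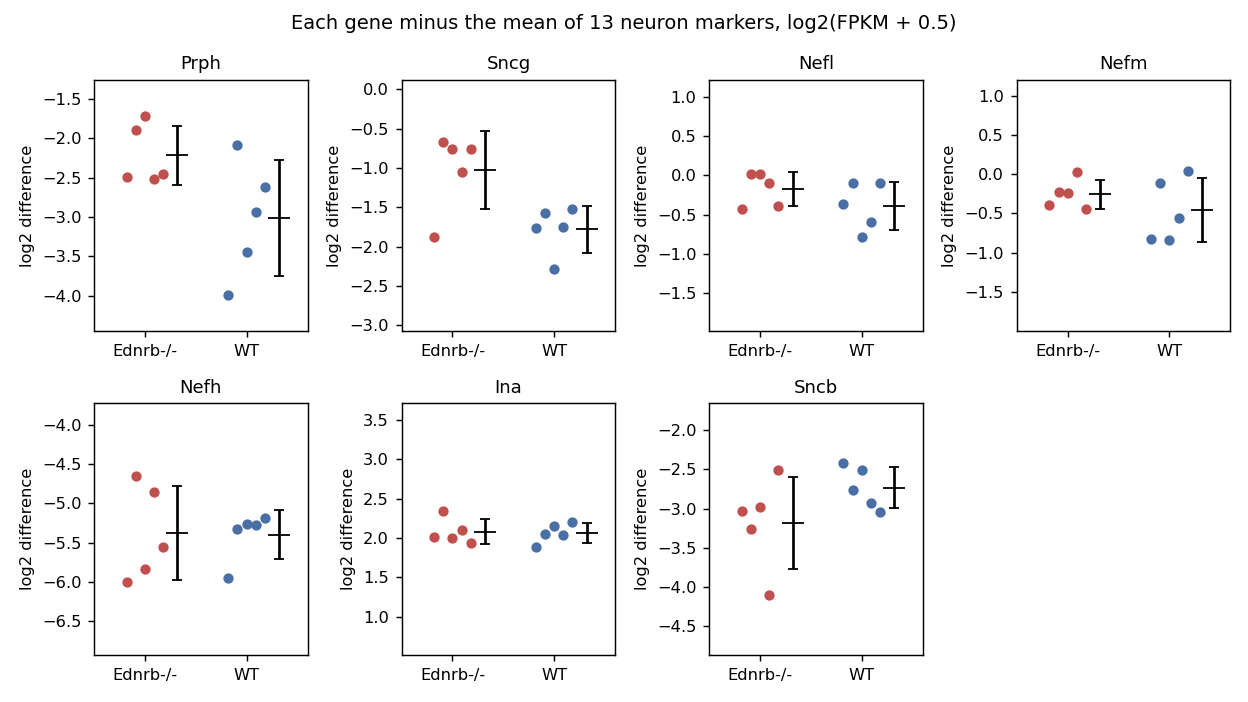
Level of 7 genes minus the mean of 13 neuron markers, on the log2(FPKM + 0.5) scale, with Ednrb-/- in red at the left, WT in blue at the right and the mean ± SD of 5 libraries in black. Each panel spans the same number of log2 units. Ina stays near 2.08 in Ednrb-/- and 2.06 in WT libraries, while Prph lies at -2.21 in Ednrb-/- and -3.02 in WT libraries.

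Several neuronal genes had the same lowest or highest library. Ednrb-/- replicate 1 was the lowest of its group in 6 of the 6 genes Prph, Nefl, Nefm, Nefh, Ina and Sncg, and Ednrb-/- replicate 2 was the highest in 4. That replicate 1 also had the lowest neuron list mean, 6.49, and the highest fibroblast-like list mean, 3.38, of the Ednrb-/- group on the log2(FPKM + 0.5) scale. WT replicate 5 was the highest of its group in 5 of these 6 genes, while the lowest was replicate 3 for 3 genes, replicate 1 for 2 and replicate 2 for 1. Sncb did not follow this order: it was lowest in replicate 4 and highest in replicate 5 of the Ednrb-/- group, and lowest in replicate 5 and highest in replicate 1 of the WT group. WT replicate 3 was the lowest for Nefl, Nefm and Sncg and the highest for Vim, and it had the lowest neuron list mean, 5.96, and the highest fibroblast-like and smooth muscle list means, 4.72 and 5.74, of the WT group. Whether the make-up of the explants sets this order was not tested. Leaving out both WT replicate 2, which had the lowest mesenchymal levels of its group, and Ednrb-/- replicate 1 gave log2 fold changes of 1.65 for Prph, 1.57 for Sncg and -1.09 for Vim.

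Among themselves, Nefl and Nefm, which share exonic bases and whose reads are not fully separable here, had the most similar profiles. With each gene centred on its own mean over the 10 libraries, they differed by a mean of 0.15 log2 units per library, and Nefl and Ina by 0.19. Nes was nearest to Vim, at 0.26, and Sncb to Ina, at 0.40. Sncg was nearest to Nefl, at 0.34, and Prph to Sncg, at 0.35. Prph and Vim were the farthest apart, at 1.17.

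The same measure over 11861 other protein-coding genes gave each main member its closest profiles. Nearest to Prph were Nhlh2, a neuronal bHLH factor gene, at 0.24, Hoxa2 at 0.28, Lhx3 at 0.30 and Hey1 at 0.31, where the median over all these genes was 0.72. Nearest to Sncg were Cdo1, the cysteine dioxygenase gene, at 0.19, Map7, a microtubule-binding protein gene, at 0.21, Gdpd2 at 0.23 and Tmem35a at 0.25, with a median of 0.72. Nefl was closest to Fgfr3, Bhlhe22, Itgb8 and Fgfbp3, at 0.11, 0.11, 0.11 and 0.12 with a median of 0.42. For Nes the closest were Uggt1, a sensor of glycoprotein folding, at 0.06, Tep1 at 0.08, and Ppp1r12a and Fyco1 at 0.09, with a median of 0.35. For Vim they were Soat1, which esterifies cholesterol, at 0.07 and Ybx3, Lrp10 and Grb10 at 0.08, 0.08 and 0.09, with a median of 0.53. These profiles include the step between genotypes by which the genes were picked.

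Around the filaments, most genes of the other intermediate filaments and of the turnover and chaperone list fell in Ednrb-/- explants, while in the remaining lists most genes did not pass. Of 90 genes listed for these roles 77 were tested, 36 passed, 17 upward and 19 downward, where 19.5% of all genes passed, and their median log2 fold change was 0.04. Without WT replicate 5 the upward count was 11. Krt5, Dsp, Eppk1 and Hspa8 of these lists are not analysed here.

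In the list of other intermediate filaments 6 of 8 genes fell and none rose, with a median log2 fold change of -2.61. Those with the smallest adjusted p were the simple-epithelium keratin genes Krt19 and Krt18, at -3.21 (SE 0.50) and -2.79 (SE 0.47), the muscle filament gene Des, at -2.58 (SE 0.47), and Lmna, the gene of the A-type nuclear lamins, at -2.65 (SE 0.42). Krt8, the keratin that pairs with the product of Krt18, was at -2.82 (SE 0.71). Lmna averaged 3.18 ± 1.86 FPKM in Ednrb-/- and 23.0 ± 10.2 FPKM in WT libraries, while Lmnb1, a B-type lamin gene named after its values were seen, averaged 113 and 107 FPKM in Ednrb-/- and WT libraries and did not pass (limma, adjusted p = 0.692). Summed epithelial markers ran from 1.93 to 17.5 FPKM in Ednrb-/- and from 25.998 to 68.5 FPKM in WT libraries. Krt8, Krt18 and Krt19 are on that list too and averaged 10.0, 12.6 and 17.7 FPKM in WT libraries, where the sum averaged 43.9. In Ednrb-/- libraries they averaged 1.61, 1.56 and 1.66 FPKM, and the sum 6.30 FPKM. The sum therefore mostly repeats the keratin values. The other epithelial marker tested, Tfap2c, averaged 1.16 FPKM in Ednrb-/- and 1.66 FPKM in WT libraries (limma, adjusted p = 0.569). The part of epithelial cells in the keratin values was not tested. Among 5 linkers tested Plec, the gene of plectin, which ties filaments to other structures, fell by 1.53 (SE 0.29) on the log2 scale, and Pkp2, a desmosomal plaque gene, fell by 1.76 (SE 0.34).

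In the turnover and chaperone list 8 of 13 genes fell and 1 rose, with a median of -1.06. The small heat shock protein genes Hspb8 and Hspb1 had log2 fold changes of -2.75 (SE 0.49) and -2.64 (SE 0.51). For Hspb1, at 0.478 FPKM in Ednrb-/- and 6.05 FPKM in WT libraries, the value was -4.33 by limma voom on recovered reads. Their co-chaperone gene Bag3 was at -2.35 (SE 0.31), and the calpain gene Capn2, of a protease that cleaves filaments, at -1.06 (SE 0.19). The gene that rose was Trim2, a ubiquitin ligase that binds the neurofilament light chain in mice, at 11.8 ± 0.73 FPKM in Ednrb-/- and 9.01 ± 1.13 FPKM in WT libraries. It was named after its values were seen, and its call was lost without WT replicate 3 (limma, adjusted p = 0.0506) or WT replicate 5 (0.0545).

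Of 15 filament kinase genes 3 rose and 2 fell. Cdk5r1, which activates the neuronal kinase Cdk5, averaged 84.8 ± 8.83 FPKM in Ednrb-/- and 61.5 ± 3.93 FPKM in WT libraries, and Mapk8 averaged 25.8 ± 2.24 and 19.2 ± 2.50 FPKM in Ednrb-/- and WT libraries (SD, n = 5 each). The others were Pak1, upward and named after its values were seen, and Rock1 and Rock2, downward. The call of Pak1 was lost without any 1 of 8 libraries, all but Ednrb-/- replicate 4 and WT replicate 2 (limma, adjusted p from 0.0521 to 0.108), and with no filter, no variance trend, TPM rescaling or quantile normalization. That of Rock1 was lost without Ednrb-/- replicates 2, 3 or 5 or WT replicates 3, 4 or 5 (limma, adjusted p from 0.0517 to 0.0864). That of Rock2 was lost without Ednrb-/- replicates 1, 3 or 5 or WT replicates 1, 3, 4 or 5 (limma, adjusted p from 0.0532 to 0.0942), and with no filter or no variance trend.

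Among 11 motor genes that move filaments along axons, Kif5a, Kif5c and Klc1, parts of the kinesin that neurons use for axonal transport, rose by 0.45 (SE 0.09), 0.40 (SE 0.09) and 0.33 (SE 0.07) on the log2 scale. Dync1i1, a dynein intermediate chain gene, fell by 0.79 (SE 0.20) at 0.518 and 1.24 FPKM in Ednrb-/- and WT libraries. The value was -1.30 by limma voom and -0.52 with quantile normalization, and its call was lost without WT replicate 4 (limma, adjusted p = 0.0612). Of 9 genes whose proteins bind neurofilament or neuronal mRNA 3 rose, Elavl4, Nova1 and Matr3, by 0.65 (SE 0.11), 0.41 (SE 0.09) and 0.40 (SE 0.09). Of 16 synuclein partners 7 rose and none fell, with a median of 0.34. Syt1, Snap25 and Elavl4 are also on the neuron list. Those that rose included the synaptic vesicle genes Syt1 and Rab3a and the SNARE genes Snap25 and Vamp2, at 0.57 (SE 0.12), 0.56 (SE 0.13), 0.58 (SE 0.13) and 0.38 (SE 0.10) on the log2 scale. The call of Vamp2 was lost without Ednrb-/- replicate 5 or WT replicates 4 or 5 (limma, adjusted p from 0.0510 to 0.0529).

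**Figure D5:**
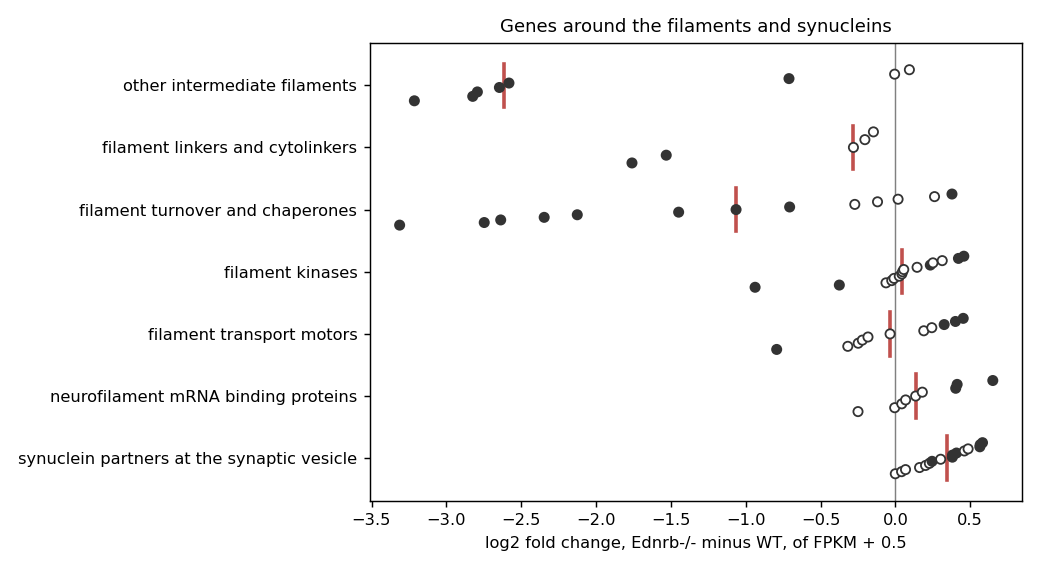
Log2 fold change, Ednrb-/- minus WT, of the tested genes of 7 lists. Each point is a gene, filled where it passed the threshold over all genes, and red lines are list medians. The medians run from -2.61 for other intermediate filaments to 0.34 for synuclein partners.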

How the data were processed

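RNA sequencing of 5 Ednrb-/- and 5 WT explant libraries was used. The deposited values are FPKM per the file headers, 1 column per library, matched to samples by genotype and replicate number, with 0 further columns. Among the tools, HISAT2 2.0.5, featureCounts 1.5.0-p3 and fastp are named in the submitters' processing notes, with the build mm10. Identifiers are those of the C57BL/6NJ assembly. The sources used here do not give filters or strand.

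Reads worked back from FPKM, gene length and depth were whole within 0.01 for 100% of values. limma 3.58.1 (R 4.3.3, trend) was fitted on log2(FPKM + 0.5). The same fit was also run on simulated reads that had the same spread setting for every gene, with results not reported here. Members and lists were chosen with earlier results of these data known. Named genes are all members, the 4 closest profiles of each main member, and others. From each list of genes around the filaments and synucleins, up to 4 past the threshold were named. The others were picked once their values were known, and the text marks only some of them so. Fabp7, Rfx4, Lhx3, Gata3, Dcn, Krt8 and Kdr are among the unmarked ones. Protein sequences were not used here. p-values weigh the difference between genotype means against the spread between these libraries, which limma adjusts for each gene using all genes. Some results of the listed genes are not reported here.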

Additional observations from a re-analysis of the deposited data

Results flagged for a closer look

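Among 5 libraries of a genotype, some values stood far from the other four. This was looked for in 134 groups of values, 8 were marked, and chance marks about 1 in 20. In WT explants replicate 1 had the highest Nefl to Nefm ratio, 1.39 against 0.908 to 1.03, and the lowest Nefh level relative to the neuron list, -5.95 against -5.33 to -5.18 log2 units. WT replicate 2 had the lowest Des level, 2.05 FPKM against 10.3 to 13.2 FPKM. It also had the highest Vim level relative to the fibroblast-like list, 5.26 against 4.26 to 4.47 log2 units, and relative to the smooth muscle list, 5.13 against 3.24 to 3.57 log2 units. WT replicate 4 had the highest Krt18 level, 25.3 FPKM against 6.32 to 11.6 FPKM. In Ednrb-/- explants Kif5a was lowest in replicate 1, at 38.4 FPKM against 49.3 to 51.2 FPKM, and Krt19 highest in replicate 4, at 4.80 FPKM against 0.444 to 1.47 FPKM.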

How the results depend on the processing

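Of the 9 members, 7 passed under all 20 alternatives: 2 other pseudocounts, 2 other filters, TPM rescaling, quantile normalization, limma voom, no variance trend, the replicate block, each library left out, and WT replicate 2 and Ednrb-/- replicate 1 left out together, the last chosen after seeing the data. Their direction held in each, but they were chosen by this contrast, so these refits of the same values test nothing about them. Sncb, which did not pass, ran from -0.11 without Ednrb-/- replicate 5, a reversal, to 0.33 without Ednrb-/- replicate 4. With single libraries left out, the count over all genes ran from 1898 (without WT replicate 3) to 3240 (without WT replicate 2), with higher ones from 511 (without WT replicate 5) to 1151 (without WT replicate 2) and lower ones from 1385 to 2089. It was 1912 without WT replicate 4 and 1902 without WT replicate 5, and the higher count was 588, 561, 513 and 521 without Ednrb-/- replicates 3 and 5 and WT replicates 3 and 4. In the same refits the member count stayed at 7, the list count ran from 27 to 35, and its higher and lower parts from 11 to 17 and from 15 to 20. With WT replicate 2 and Ednrb-/- replicate 1 both left out, the lists had 36 calls, 18 of them higher, and all genes 3154. The higher count over all genes was 659 with no filter and 1603 with quantile normalization. With the replicate block, where the numbers do not pair the libraries, the count over all genes was 1877 with 419 higher, and that of the lists 22 with 7 higher. It ended the calls of Mapk8, Rock1, Rock2, Klc1, Dync1i1, Matr3, Snap25, Vamp2, Pak1, Trim2, Fabp7 and Gata3 and no member's. Deviations of same-numbered libraries correlated between -0.16 and 0.15, and no library correlated best with its own number. The cause of these shifts was not tested. Nefh rests on 48 to 181 reads, which limits its precision.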
